A study of Mus musculus with 6 samples.

Results

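The ABCA genes encode large membrane proteins that bind and hydrolyse ATP to move lipids across or out of membranes. The 10 genes described here, Abca1 to Abca7, Abca8a, Abca8b and Abca9, were taken by symbol from the 18059 genes in the expression tables of 6 libraries of mouse cardiac fibroblasts, which lay down the heart's extracellular matrix. All 10 were present and all 10 passed the low-count filter. The family was singled out because of its difference between the groups in these same libraries, so the values between control and PDGF-DD are given as a description. No p-value is printed for a single member. Where a member is said to be called or not, this only places it by the threshold used for all genes.

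Cells came from the hearts of C57BL/6 mice of 1 to 2 weeks of age and were grown in medium with 15% serum. Of the 6 libraries, 3 came from cells given saline (control) and 3 from cells given PDGF-DD, a growth factor dimer made of 2 PDGF-D chains, for 12 hours at a dose the labels give as 20 µM, which is very high for a growth factor and makes the unit doubtful. The protocols place all cells in global PDGF-D KO mice, whereas the genotype field reads control for the saline libraries and PDGF-D -/- for the PDGF-DD libraries, so it is unclear whether genotype differs together with treatment. Estimated counts assigned to Pdgfd itself were 118, 114 and 91 in control and 69, 72 and 82 with PDGF-DD, and a count over the whole gene cannot show whether the edited part was lost. Nothing in the labels ties a library to its own animal or dish, so each p-value below reflects the spread of the 6 libraries alone, possibly a technical one.

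The libraries held between 21221114 and 21371829 estimated counts, and control replicate 1 differed most from its group: the chi-square of the counts divided by its degrees of freedom was 5.11 and 5.7 for its pairs with the other controls, and 1.9 to 2.74 for the other pairs within a group. The fibroblast label was checked with 10 marker genes, all of which were detected, and Col1a1 was the most abundant at a mean of 7484 TPM (a transcript abundance scaled for library size and transcript length). The 10 summed to between 20110 and 22050 TPM in control and between 18530 and 18840 TPM with PDGF-DD. By edgeR (adjusted p under 0.05), 6 of them fell and 1 rose. The same test called 17.4% of all tested genes lower and 19.1% higher. Markers of other heart cells were also present. The summed level of 8 cardiomyocyte markers lay between 311.6 and 335.9 TPM in control and between 222.6 and 251.8 TPM with PDGF-DD, most of it from Tnnt2 (mean 271 TPM over the 6 libraries), while Ttn, Ryr2 and Actn2 stayed under 1 TPM in every library, and 3 of the 6 tested fell. The 8 pericyte and smooth muscle markers summed to between 232.4 and 255.5 TPM in control and between 192.4 and 203.2 TPM with PDGF-DD. Of the 7 tested, 4 fell and 1 rose. The 10 macrophage markers summed to between 138.6 and 148.4 TPM and between 126.4 and 139.3 TPM, with none called in either direction by edgeR (adjusted p under 0.05). The 8 endothelial markers summed to between 179.0 and 199.5 TPM and between 175.4 and 177.3 TPM, and 1 fell. The 6 epicardial and epithelial markers summed to between 51.22 and 57.33 TPM in control and between 48.72 and 53.14 TPM with PDGF-DD. Of these 1 rose and 1 fell. For the 5 Schwann cell markers the sums were 9.7 to 11.1 TPM in control and 9.01 to 9.3 TPM with PDGF-DD. None of the 4 tested was called. The part of these cells in the differences below was not tested, and in bulk RNA fewer cells of a type and less RNA per cell cannot be told apart.

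ABCA proteins differ in where they act. ABCA1 sits at the cell surface and hands cholesterol and phospholipid to apolipoprotein A-I, the first step in forming high-density lipoprotein, and its gene is a classic target of the sterol-sensing nuclear receptors LXRα and LXRβ. ABCA3 and ABCA2 work on membranes inside the cell, and ABCA4 is the retinoid lipid transporter of photoreceptors. ABCA5, ABCA6, ABCA8 and ABCA9 form a separate branch whose genes lie side by side in the genome, and mice carry Abca8a and Abca8b where humans have a single ABCA8.

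All 10 genes were expressed at modest levels in control fibroblasts, and together they summed to 77.7 ± 3.64 TPM (SD, n = 3). Abca3, known for loading phospholipid into the surfactant-storing lamellar bodies of the lung, had the highest control mean at 14.9 ± 1.63 TPM. Abca8a followed at 13.7 ± 0.78 TPM, and the control values of these genes overlapped. Next came Abca7, a phospholipid transporter related to Abca1, at 9.88 ± 0.64 TPM, and Abca2, a transporter of endosomes and lysosomes, at 9.49 ± 0.39 TPM, again with overlapping values. Abca1 at 7.89 ± 0.55 TPM and Abca5 at 7.71 ± 0.46 TPM also overlapped. Below them Abca8b at 6.49 ± 0.19 TPM, Abca9 at 4.77 ± 0.14 TPM, Abca6 at 2.47 ± 0.14 TPM and Abca4 at 0.41 ± 0.09 TPM were each separated from the next gene in all 3 control libraries. Of the other ABCA genes in the tables, Abca12, Abca13, Abca16 and Abca17, none was tested, since no library held more than 2.05 counts for any of them.

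**Figure D1:**
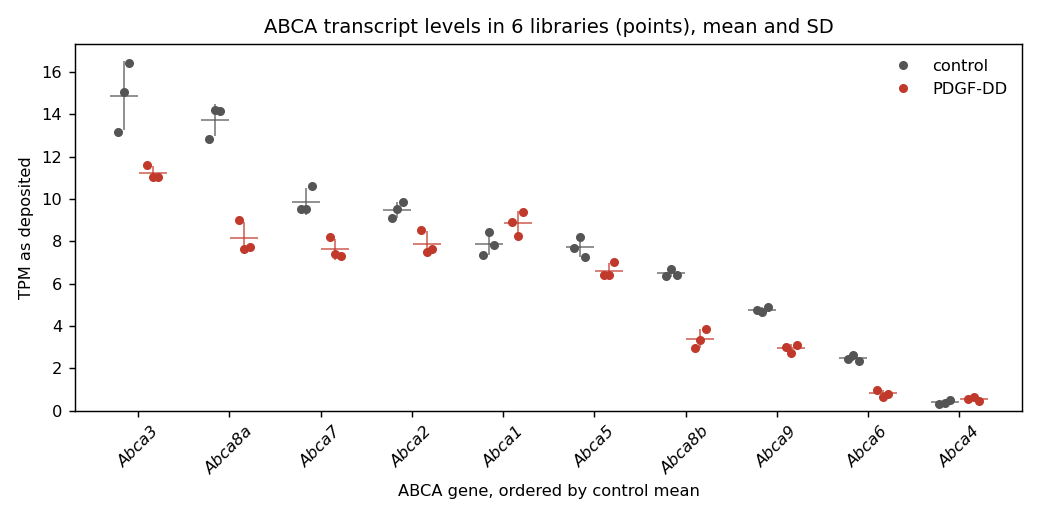
Deposited TPM of the 10 ABCA genes, ordered by control mean, with each library as a point and the group mean ± SD (3 libraries each, control in grey and PDGF-DD in red). The red and grey points of Abca1 and Abca4 overlap, and in the other 8 genes every red point lies below every grey one.

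The 5 genes that lie side by side, in the order Abca8b, Abca8a, Abca9, Abca6 and Abca5, were all lower with PDGF-DD. For Abca8b, Abca8a and Abca9, which differ strongly between the groups, the 250 bases before the annotated gene start are shown. They allow comparison with Abca1, the only member called higher, while Abca4 was also higher but was not called. The sequences are from RefSeq on build GRCm38.p6, on the minus strand in every case, at chr11:109995846-109996095 for Abca8b, chr11:110095938-110096187 for Abca8a, chr11:110168154-110168403 for Abca9 and chr4:53159896-53160145 for Abca1. Capitals mark an E-box in Abca8a and, in Abca1, an E-box followed by a match to the LXR element.
Abca8b: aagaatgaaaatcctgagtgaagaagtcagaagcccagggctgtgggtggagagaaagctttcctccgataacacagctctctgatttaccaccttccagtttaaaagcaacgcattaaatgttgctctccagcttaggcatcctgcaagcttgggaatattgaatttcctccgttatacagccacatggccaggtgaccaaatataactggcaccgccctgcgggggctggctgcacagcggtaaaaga
Abca8a: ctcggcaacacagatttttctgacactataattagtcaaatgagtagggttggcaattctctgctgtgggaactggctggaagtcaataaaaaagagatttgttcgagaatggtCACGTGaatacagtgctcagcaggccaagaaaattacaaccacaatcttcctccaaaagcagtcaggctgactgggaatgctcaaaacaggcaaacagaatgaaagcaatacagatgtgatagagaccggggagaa
Abca9: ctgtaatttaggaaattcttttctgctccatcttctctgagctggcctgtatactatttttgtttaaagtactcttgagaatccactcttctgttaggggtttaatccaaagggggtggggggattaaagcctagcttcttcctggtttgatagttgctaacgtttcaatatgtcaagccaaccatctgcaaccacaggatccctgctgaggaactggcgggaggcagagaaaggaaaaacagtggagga
Abca1: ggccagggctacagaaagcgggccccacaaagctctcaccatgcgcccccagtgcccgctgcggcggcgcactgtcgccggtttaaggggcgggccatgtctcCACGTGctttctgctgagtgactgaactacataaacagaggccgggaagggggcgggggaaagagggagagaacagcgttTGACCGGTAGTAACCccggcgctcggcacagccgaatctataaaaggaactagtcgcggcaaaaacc

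The windows of Abca8a, Abca8b and Abca9 hold 4, 6 and 2 CpG dinucleotides, and that of Abca1 holds 20. The other members with an entry held 20 (Abca2), 21 (Abca3), 12 (Abca4), 25 (Abca5) and 12 (Abca7), and the middle of the range over all 32851 promoters in the table ran from 2 to 16 with a median of 6. A relation between CpG content and fold change was not tested. The E-box CACGTG, a motif bound by many basic helix-loop-helix factors, occurs in 2 of 9 member windows, beginning 136 bases before the start of Abca8a and 147 bases before that of Abca1, and in 6.02% of all windows. The general LXR motif, the DR4 element, was in none of the 9 and in 0.0152% of all windows. The form of this element known from Abca1 (the second stretch in capitals above), searched for after the sequence was seen, lies on the opposite strand 67 bases before the Abca1 start and is in 2 of the 32851 windows. A forkhead motif (GTAAACA, 3.17% of windows), the AP-1 motif TGACTCA (4.46%) and the sterol regulatory element (0.0731%) were not found in any member window. All motifs were searched on both strands, a match is only a match of letters, and no entry was used for Abca6.

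Abca6, a transporter with no settled substrate, had the largest fold difference of the family. Its level was 2.46, 2.62 and 2.34 TPM in the control libraries and 0.98, 0.67 and 0.81 TPM in the PDGF-DD libraries. Every PDGF-DD library was below every control library. The log2 fold change from the counts was -1.47 (SE 0.14), a 2.77-fold lower level. It rests on 116.34 to 131.52 counts per control library and 42.49 to 46.13 counts per PDGF-DD library.

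Abca8b and Abca8a correspond to the human transporter ABCA8, which has been linked to cholesterol efflux and to sphingomyelin production in myelinating cells. Abca8b stood at 6.37, 6.71 and 6.40 TPM in control and at 2.98, 3.35 and 3.86 TPM with PDGF-DD. Its log2 fold change was -1.01 (SE 0.08), a 2.01-fold lower level, with no overlap between the groups. Abca8a stood at 12.83, 14.21 and 14.14 TPM in control and at 9.02, 7.66 and 7.75 TPM with PDGF-DD. This gene, level with Abca3 at the top of the family in control, was 1.72-fold lower (log2 fold change -0.78, SE 0.07), and its groups did not overlap either.

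Abca9, a close relative of Abca6 and Abca8, was at 4.75, 4.65 and 4.92 TPM in control and at 3.02, 2.73 and 3.09 TPM with PDGF-DD. All 3 PDGF-DD libraries were below all controls, with a log2 fold change of -0.66 (SE 0.09). Abca5, which localises to late endosomes and lysosomes, was at 7.68, 8.19 and 7.27 TPM in control and at 6.43, 6.40 and 7.01 TPM with PDGF-DD. Its groups came close without overlapping, and the log2 fold change was -0.21 (SE 0.07). Abca5 was thus the smallest fall in the cluster, and it was not called without control replicate 2 (log2 fold change -0.18) or without PDGF-DD replicate 1 (-0.18), nor by limma on the deposited TPM or FPKM values.

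**Figure D2:**
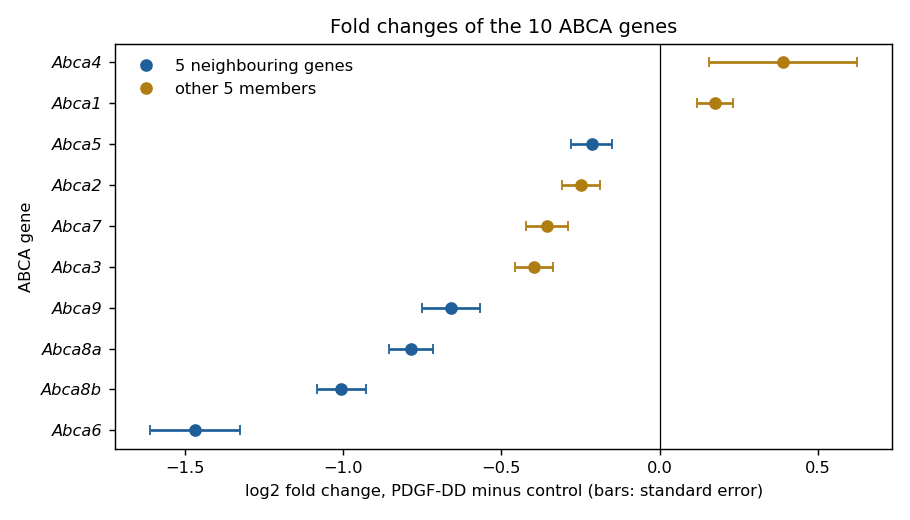
Log2 fold change of each ABCA gene, PDGF-DD minus control, from the counts, with bars for the standard error (3 libraries per group). The 5 neighbouring genes (blue) span -1.47 for Abca6 to -0.21 for Abca5, and Abca1 and Abca4 are the genes to the right of 0.

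Reads of near-identical genes can be shared in counting, and this was examined for the cluster. Of the 50-base stretches in the coding transcripts of Abca8a (GENCODE M21), 1.81% also occur in Abca8b, and 1.42% of those in Abca8b occur in Abca8a. Abca6 and Abca9 share 0.25% and 0.205% of theirs, and no stretch of 100 bases was shared by any members. The search covered only these GENCODE transcripts of the members, which need not be those behind the deposited counts. For Abca6 it held 1 transcript of 5.24 kb, whereas the deposited values give a length of 7.20 kb in PDGF-DD replicate 2. The deposited counts of Abca6, Abca8a and Abca8b were not whole numbers in any of the 6 libraries, and those of Abca9 were not in 3, so some of their reads had been divided between features by estimation. Counts of Abca3 were also not whole in control replicate 3 (960.95) and PDGF-DD replicates 1 and 3 (694.97 and 665.99). In each library between 31.93% and 32.65% of all genes had counts that were not whole. In addition, 241 exon bases of Abca8b overlap the antisense gene Gm11697 and 914 of Abca3 overlap D330041H03Rik on the opposite strand, and without a known strand setting their reads cannot be told apart.

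Abca1, the exporter of cholesterol to apolipoprotein A-I, was the only member called higher. It stood at 7.37, 8.46 and 7.83 TPM in control and at 8.92, 8.26 and 9.38 TPM with PDGF-DD. The TPM values of the groups overlapped, since PDGF-DD replicate 2 was below control replicate 2, although the counts scaled to library size did not, at 35.3 ± 1.72 against 39.9 ± 2.13 CPM (counts scaled for library size only, SD, n = 3 each). The log2 fold change was 0.18 (SE 0.06), a 1.13-fold higher level. Abca1 was no longer called without control replicate 1 (log2 fold change 0.15), control replicate 3 (0.16) or PDGF-DD replicate 3 (0.14), nor by DESeq2 or limma, although its direction was the same under all 16 alternatives tried.

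Abca3 was lower with PDGF-DD, at 13.17, 15.04 and 16.42 TPM in control and 11.60, 11.04 and 11.02 TPM with PDGF-DD. The control libraries spread more widely than the PDGF-DD libraries, and the log2 fold change was -0.40 (SE 0.06). Abca7, known for its part in phagocytosis and as a risk gene of Alzheimer disease, was at 9.51, 9.51 and 10.61 TPM in control and 8.19, 7.38 and 7.30 TPM with PDGF-DD, with a log2 fold change of -0.36 (SE 0.07). Abca2, abundant in myelin-forming cells, was at 9.08, 9.54 and 9.85 TPM in control and 8.55, 7.5 and 7.63 TPM with PDGF-DD, a log2 fold change of -0.25 (SE 0.06). In each of these 3 genes every PDGF-DD library lay below every control library.

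Abca4 was barely expressed, at 0.34, 0.39 and 0.51 TPM in control and 0.54, 0.65 and 0.44 TPM with PDGF-DD. These values rest on 21 to 36 counts per library and overlapped, and the log2 fold change of 0.39 (SE 0.23) did not pass the test.

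Counted over the family, 8 of the 10 genes were called lower, 1 higher and 1 neither (edgeR, Benjamini-Hochberg adjusted p under 0.05 over all 13270 tested genes). Of all tested genes, 36.5% were called, with 17.4% lower and 19.1% higher. The groups did not overlap, with PDGF-DD lower, for 8 members in scaled counts and for 23.5% of all tested genes (47.1% in either direction). The median log2 fold change of the members was -0.38, and that of all tested genes was -0.01. Because the family was chosen from this comparison, nothing is read from these counts. As a description of size, 4 members were called lower with a log2 fold change of -0.5 or less, as were 4.31% of all tested genes. The fold change of Abca6 was among the lowest 0.279% of tested genes and that of Abca8b among the lowest 0.867%. These ranks come from the comparison by which the family was chosen, so nothing is read from them either.

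The members did not change in proportion, so the make-up of the family's transcripts differed between the groups. The summed level of the 10 genes was 73.56, 79.32 and 80.29 TPM in control and 60.23, 55.64 and 58.29 TPM with PDGF-DD. The 4 genes Abca6, Abca8a, Abca8b and Abca9 made up 35.4% ± 0.66 of that sum in control and 26.4% ± 0.40 with PDGF-DD (SD, n = 3 each). The share of Abca1 was 10.2% ± 0.47 in control and 15.2% ± 0.73 with PDGF-DD. Abca1 moved from the fifth place in the order of control levels to the second, with values that overlapped those of Abca8a and Abca2 behind it. The share of Abca3 was 19.1% ± 1.28 and 19.3% ± 0.47, so the most abundant member kept its part of a smaller pool.

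**Figure D3:**
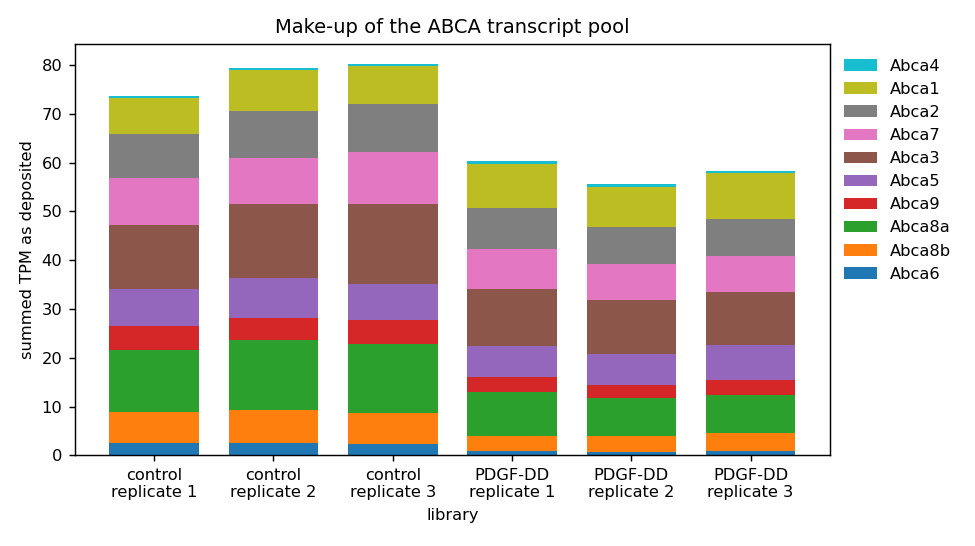
Summed deposited TPM of the 10 ABCA genes in each of the 6 libraries, stacked by gene. The bars fall from between 73.56 and 80.29 TPM in control to between 55.64 and 60.23 TPM with PDGF-DD, and the 4 lowest segments, Abca6, Abca8b, Abca8a and Abca9, together go from a mean of 27.5 TPM to 15.3 TPM.

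The genes around the cluster were examined next, a set chosen after the members' values were seen. In RefSeq gene order no other protein-coding gene lies between Abca8b and Abca5. Of the 12 protein-coding genes nearest to the cluster, 6 on each side, 9 were tested. Of these 3 fell, 2 rose and 4 did not pass, with a median log2 fold change of -0.10. Among all tested genes 17.4% fell and 19.1% rose, and the flanking genes were not tested against that share. On the Abca5 side the next gene, Map2k6, a kinase that activates p38, rose from 1.38 ± 0.24 to 2.59 ± 0.25 TPM (log2 fold change 0.93, SE 0.17, edgeR adjusted p = 0.000106). On the Abca8b side the nearest tested gene, Fam20a, a secretory pathway pseudokinase, fell by 0.23 on the log2 scale (edgeR adjusted p = 0.00127), and Prkar1a, a regulatory subunit of protein kinase A, did not pass at 238.5 and 238.8 TPM (log2 fold change 0.01, edgeR adjusted p = 0.901). Arsg, a lysosomal sulfatase, fell by 0.38 (edgeR adjusted p = 0.0146), and the transcription factor gene Sox9 fell by 0.13 (edgeR adjusted p = 0.0247). The other gene that rose was the zinc transporter gene Slc39a11, by 0.15 on the log2 scale (edgeR adjusted p = 0.0389). No tested flanking gene had a fold change as low as that of Abca9, Abca8a, Abca8b or Abca6. Abca5, at -0.21, was close to Fam20a and less low than Arsg. Since the family was chosen by its difference, nothing is read from this contrast.

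**Figure D4:**
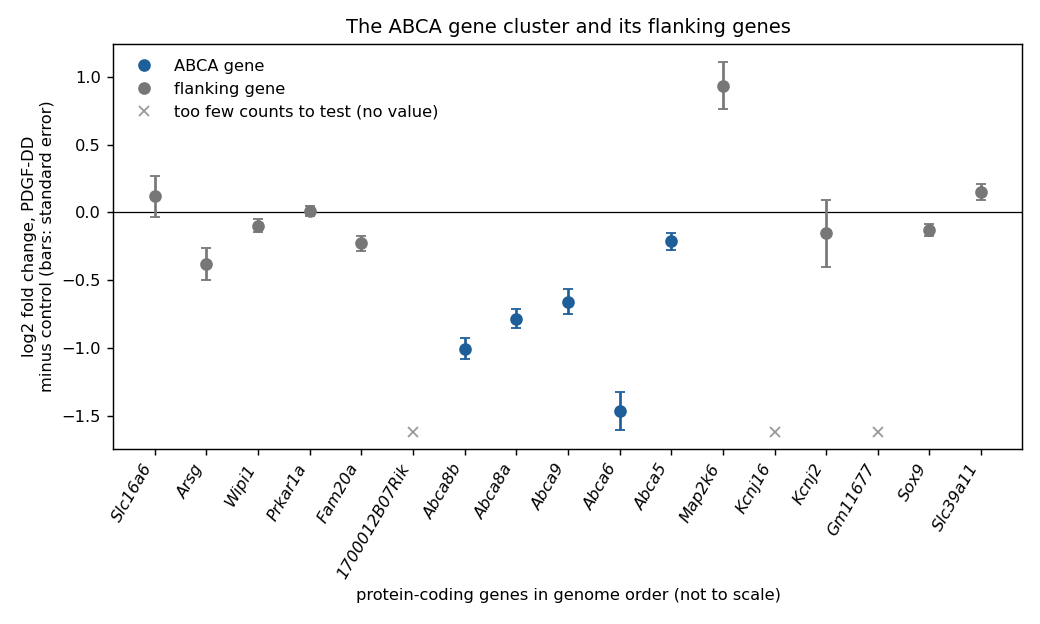
Log2 fold change (PDGF-DD minus control, bars show the standard error) of the 5 neighbouring ABCA genes and the 6 nearest protein-coding genes on each side, in genome order and not to scale. Abca8b, Abca8a, Abca9 and Abca6 lie between -0.66 and -1.47, and Abca5 is at -0.21. Map2k6 next to Abca5 is at 0.93, and crosses mark the 3 genes with too few counts to test.

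The genes most like the 3 most abundant members were sought by the mean absolute difference of centred log2 CPM over the 6 libraries, among 10458 genes. For Abca8a these were Cacna1a, a neuronal calcium channel subunit (mean difference 0.02 log2 units), the cornified envelope gene Scel (0.035) and the fibronectin domain gene Fndc1 (0.037), with log2 fold changes of -0.78, -0.84 and -0.80. Scel was measured at 134.7, 135.4 and 135.4 CPM in control and 80.5, 71.8 and 75.1 CPM with PDGF-DD. For Abca3 they were Arhgap23, a GTPase-activating protein gene (0.023), the tubulin gene Tubb4a (0.025) and Mtss2 (0.026), and for Abca7 they were parathymosin (Ptms, 0.019), Lynx1 (0.02) and the neuroligin gene Nlgn2 (0.023). The measure rests on 6 libraries in 2 groups. All 9 genes were lower with PDGF-DD, which follows from choosing them by likeness to members that were lower.

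Related genes were described through 7 further lists, some of which share genes, and the tests below are from the same fit over all genes. Of 26 tested members of the other ABC families, 7 rose, 5 fell and 14 did not pass, with a median log2 fold change of -0.04. These counts, and those of the lists that follow, stand beside 19.1% higher and 17.4% lower among all tested genes, and no list was tested against that share. The rises included Abce1 and Abcf2, family members that act in ribosome recycling or translation and do not transport lipid. Abce1 rose from 119.4 ± 4.93 to 143.4 ± 6.24 TPM (log2 fold change 0.27, edgeR adjusted p = 3.27e-06) and Abcf2 by 0.26 (edgeR adjusted p = 1.58e-05). The drug and glutathione conjugate exporter gene Abcc1 rose by 0.25 (edgeR adjusted p = 2.39e-05), and the cyclic nucleotide exporter gene Abcc5 fell by 0.32 (edgeR adjusted p = 5.79e-06). Abcg1, which exports cholesterol together with Abca1, stood at 2.46 ± 0.10 and 2.24 ± 0.37 TPM and did not pass (log2 fold change -0.13, edgeR adjusted p = 0.452). Abcg4, its close relative, had the lowest fold change of the list at -2.17 (edgeR adjusted p = 0.00029), on at most 19 counts per library. Abcg1 and Abcg4 were named after their values were seen. Only 3 of the list fell when control replicate 3, or replicate 1 or 3 of PDGF-DD, was left out.

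Of 12 tested targets of LXR other than Abca1, 2 rose, 4 fell and 6 did not pass, with a median log2 fold change of -0.14. Those that fell were Smpdl3a, an acid sphingomyelinase-like enzyme, by 0.35 (edgeR adjusted p = 5.69e-06), the phospholipid transfer protein gene Pltp by 0.31 (edgeR adjusted p = 1.11e-05), Mylip, a ubiquitin ligase gene, by 0.39 (edgeR adjusted p = 0.00196), and Apoe by 0.19 (edgeR adjusted p = 0.0026). Fasn, the fatty acid synthase, rose by 0.20 (edgeR adjusted p = 0.000164). The other rise was that of the small GTPase gene Arl4c, named after its value was seen, by 0.30 (edgeR adjusted p = 0.00685), and without PDGF-DD replicate 2 only 1 of the list rose. Lpl, the lipoprotein lipase, was at 133.4 and 134.1 TPM and did not pass (edgeR adjusted p = 0.777).

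Among the LXR and RXR receptors, their corepressors and the SREBP factors, 4 of 8 fell, none rose and 4 did not pass, with a median of -0.16. Nr1h2, which encodes LXRβ, fell by 0.14 (edgeR adjusted p = 0.0207) from a control mean of 78.3 TPM, its partner Rxra fell by 0.19 (edgeR adjusted p = 0.00231) and the corepressor gene Ncor1 by 0.18 (edgeR adjusted p = 0.00111). Srebf2, the master factor of cholesterol synthesis, fell by 0.58 (edgeR adjusted p = 1.08e-10).

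Of 10 tested genes for lipid acceptors and lipoprotein uptake, 5 fell, 1 rose and 4 did not pass, with a median of -0.14. Lrp1, a large endocytic receptor, fell by 0.31 (edgeR adjusted p = 5.02e-07). Lrp8, a receptor for apolipoprotein E and reelin, rose by 0.61 (edgeR adjusted p = 5.63e-08). Apoa1, the gene of the apolipoprotein that takes up lipid from ABCA1, had no count in any library.

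Of 21 genes of cholesterol transport and storage within the cell, 11 fell, 4 rose and 6 did not pass, with a median of -0.12, and the number that fell was 7 without PDGF-DD replicate 3. Stard4, a cytosolic sterol carrier, fell by 0.47 (edgeR adjusted p = 1.33e-06) and Gramd1b, which carries plasma membrane cholesterol to the endoplasmic reticulum, by 0.57 (edgeR adjusted p = 7.99e-06). Ch25h, which makes the LXR ligand 25-hydroxycholesterol, rose from 54.5 ± 0.86 to 76.2 ± 6.66 TPM (log2 fold change 0.49, edgeR adjusted p = 2.78e-07), and the oxysterol-binding protein gene Osbpl3 rose by 0.73 (edgeR adjusted p = 5.04e-07). Npc2, which moves cholesterol out of the lysosome, did not pass (log2 fold change -0.03, edgeR adjusted p = 0.596), and Osbpl9 fell by 0.13 (edgeR adjusted p = 0.012).

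Other proteins that move or make membrane lipids were described through 2 lists. Of 19 tested flippases, scramblases and their partners, 2 rose, 3 fell and 14 did not pass, with a median of -0.05. The phospholipid flippase genes Atp11a and Atp9a fell by 0.25 (edgeR adjusted p = 4.91e-05) and 0.23 (edgeR adjusted p = 0.000882), the scramblase family gene Plscr4 fell by 0.31 (edgeR adjusted p = 0.00116) and Atp10a rose by 0.17 (edgeR adjusted p = 0.0172). The other rise was Plscr1, named after its value was seen, by 0.20. Only 1 rise was left when replicate 1 or 2 of control or replicate 2 of PDGF-DD was dropped, 0 were left without PDGF-DD replicate 3, and 6 fell when control replicate 1 was left out. Of 16 genes of sphingomyelin synthesis and breakdown, 5 rose, 4 fell and 7 did not pass, with a median of -0.01. The neutral sphingomyelinase gene Smpd3 fell by 0.43 (edgeR adjusted p = 1.62e-05), the ceramide synthase gene Cers6 by 0.27 (edgeR adjusted p = 2.3e-05) and the acid ceramidase gene Asah1 by 0.22 (edgeR adjusted p = 5.14e-05). Sptlc1, a subunit of the enzyme that begins sphingolipid synthesis, rose by 0.22 (edgeR adjusted p = 0.00303).

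**Figure D5:**
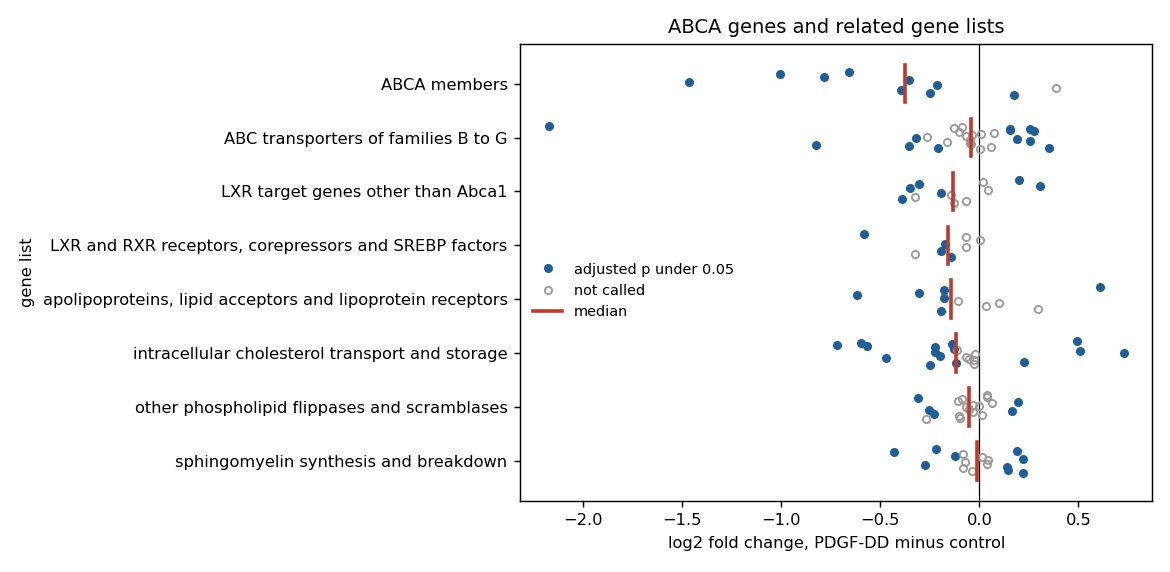
Log2 fold change (PDGF-DD minus control) of each tested gene in the ABCA family and 7 related lists, with filled points for edgeR adjusted p under 0.05, open points for genes not called and a red bar for the median. The ABCA median is at -0.38, and the medians of the other lists lie between -0.16 and -0.01. The ABCA family was chosen by its difference in these libraries, so nothing is read from the distance between these medians.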

How the data were processed

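The members and lists were chosen with earlier results of these data known. Per the labels' protocols, mRNA was selected with oligo(dT) beads and read on a DNA nanoball platform. The submitters' processing notes name HISAT2 2.0.4, Bowtie2 2.2.5, RSEM 1.2.12, DESeq2 1.4.5 and build mm9 without roles. Annotation and strand use are not given in the sources. The authors deposited, per the file headers, estimated counts (not normalized), FPKM values and TPM values for each library. Levels between genes are compared in TPM only.

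Estimated counts were rounded, filtered with filterByExpr, scaled with TMM factors (0.995 to 1.005) and compared in edgeR 4.0.16 (R 4.3.3, robust quasi-likelihood test, two-sided, 3 libraries against 3). The test was also run on simulated data with the same dispersion for all genes, and that outcome is not reported here. Calls have a Benjamini-Hochberg adjusted p under 0.05 over 13270 genes. A standard error is the fold change divided by the square root of F. Alternatives used DESeq2 1.42.0 and limma 3.58.1. Named genes are the members, in each list the 2 of highest mean TPM and up to 4 called ones of lowest p, the 3 genes most like each of the 3 members of highest level, and Pdgfd; some that qualify are not reported here. Promoters come from RefSeq (GRCm38.p6, 9 of 10 members matched by symbol); they are used for sequence only, since the submitters name another build. Library totals (21221114 to 21371829) leave the widest counting error to Abca4, with 21 to 36 counts. No protein sequence was used here.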

Additional observations from a re-analysis of the deposited data

How the results depend on the processing

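Each result was recomputed under 16 alternatives. All of them draw on the same libraries from which the family was chosen, so for the members they describe dependence on processing only. No member changed direction. Abca2, Abca3, Abca6, Abca7, Abca8a, Abca8b and Abca9 were called lower under all 16, and Abca4 under none. Abca5 kept its call under 11 and Abca1 under 9. Other library scalings moved the median of all genes by at most 0.02 in log2 units. On log2(TPM + 1) the fold change of Abca6 was -0.94, and on log2(FPKM + 1) it was -0.61, since a pseudocount compresses low values; that of Abca8b was -0.62 on the FPKM scale. The number of members called higher was 0 with DESeq2, with limma on log2(TPM + 1), log2(TPM + 0.1) and log2(FPKM + 1), and between 0 and 1 when single libraries were left out, while between 7 and 8 were called lower. Over all genes, leaving out 1 library gave between 2147 and 2643 higher and between 1729 and 2374 lower.

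With DESeq2, 3 ABC transporters of families B to G were called lower and 0 flippases and scramblases higher. By limma on either TPM scale 1 flippase or scramblase and 3 sphingomyelin genes were called higher, and with upper-quartile scaling 5 flippases and scramblases were called lower. When single libraries were left out, the counts ran from 3 to 5 lower for families B to G, 1 to 2 higher for LXR targets, 7 to 10 lower for cholesterol transport, and 0 to 2 higher and 3 to 6 lower for flippases and scramblases. The cause of these changes was not tested.

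The replicate numbers did not pair the libraries: the deviations of same-numbered libraries from their group means correlated at -0.0661, -0.0911 and -0.0257. With the replicate block 2269 genes were higher and 2076 lower, 1 member was called higher and 8 lower, and no list's count moved by over 1.5 times.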

Other observations

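The deposited TPM values depend on the transcript length that the authors' estimation gave each gene in each library, which can be recovered from the ratio of counts to TPM. For Abca1 this length was between 10.2 and 10.23 kb in all 6 libraries. For Abca6 it was 4.92, 5.51 and 5.49 kb in control and 4.65, 7.20 and 5.85 kb with PDGF-DD, and for Abca8b it was 6.15, 6.30 and 6.51 kb in control and 6.70, 6.13 and 5.30 kb with PDGF-DD. The TPM of these genes therefore varied more among the PDGF-DD libraries than their scaled counts did. For Abca6 the PDGF-DD libraries had a coefficient of variation of 18.9% in TPM, with counts of 42.49, 46.13 and 44.57, and for Abca8b one of 13.0% with counts of 185.94, 196.39 and 192.45.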
